A study of Homo sapiens with 2 samples.

Results

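The genes described here are the well-expressed genes of human chromosome 10 in MIA PaCa-2 cells, an established line from a human pancreatic cancer. They were taken from the deposited table as genes whose locus lies on chromosome 10, whose status is OK (tested by the authors), whose values average at least 10 FPKM (a fragment count divided by transcript length and library depth) over the 2 libraries, and whose symbol is neither a small RNA, nor a clone name, nor hyphenated. Of 2239 chromosome 10 genes in the table, 751 had the status OK and 278 of these reached the level. Small RNA symbols removed 2 of them, clone names 2 and hyphens 5, and a further 19 were set aside by name (the AKR1C and IFIT genes, VIM, SRGN and others). This left 250 entries, called members below, of 58698 genes in all. They carry 249 symbols, because HSPA14 has 2 overlapping entries, and 248 are protein-coding. The short arm, 10p (loci ending by 39 Mb), holds 62 members and the long arm, 10q, holds 188. The chromosome was selected on the same FPKM values and log2 differences described here, since its genes were already known to lean upwards in these libraries. The differences below therefore describe that choice and support nothing by themselves.

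One culture, sgTPST2, carried a guide against TPST2, a Golgi enzyme that attaches sulfate to tyrosines of secreted and membrane proteins, and its genotype is labelled TPST2 KD. The other, sgGFP, carried a guide against GFP, a jellyfish gene that human cells lack, and is labelled WT. Both are MIA PaCa-2, each was sequenced as 1 library of total RNA, and the labels do not say whether either was a single clone. No difference can be set against replicate spread, since each group is 1 library, and no test was made.

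Genes of a chromosome share a position, not a function. Those of chromosome 10 include a ribosomal protein, subunits of mitochondrial ATP synthase, the beta 1 integrin chain, the mitotic kinase CDK1 and enzymes of glucose and amino-acid metabolism. The products of most of them work in complexes or pathways with products of other chromosomes. Members are given first as a block, then by position, then by role.

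TPST2 itself (ENSG00000128294.15, chromosome 22, 26521983 to 26596717, GRCh38) stood at 1.92 FPKM in sgTPST2 and at 8.46 FPKM in sgGFP. Low values came in steps of whole fragments, which puts 1 FPKM at about 48.1 fragments for each kb of transcript in sgTPST2 and 42.0 in sgGFP. At 10 FPKM, 1 kb of transcript thus rests on about 481 and 420.2 fragments, and counting error alone gives a log2 difference a 95% half-width of 0.19. The fit also held a length offset of 190 bases in sgTPST2 and 180 in sgGFP. These figures leave the offset out, so 1 kb here means fitted rather than annotated length. Of 8 duct epithelial markers, 5 reached 1 FPKM in sgTPST2 and 4 in sgGFP, with summed levels of 143 and 1288 FPKM. EPCAM was listed at 0 in both. All 5 acinar and all 4 islet markers were at 0 in both, as were DCN, FAP and LUM of the 6 fibroblast markers (summed 3.70 in sgTPST2 and 29.1 in sgGFP, nearly all COL1A2), CD3E and MS4A1 of the 5 leukocyte markers (1.51 and 3.49) and PECAM1 of the 4 endothelial markers (0.418 and 12.7). The part of these marker differences in the chromosome 10 pattern was not tested.

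Most members were slightly higher in sgTPST2, and few were far from the rest. Each difference below is log2((sgTPST2 + 1)/(sgGFP + 1)), on which changes of genes near 1 FPKM look smaller than they are. The median over the 250 members was 0.22, which is 1.16-fold, and the quartiles were 1.06- and 1.26-fold. A positive difference was found in 221 members and a negative one in 29. That is 88.4% positive, against 49.0% of the 6610 genes off chromosome 10 that pass the same status, level and symbol filters. The median member had 31.5 FPKM in sgTPST2 and 26.7 FPKM in sgGFP, and all members together summed to 16951 and 14683 FPKM, a ratio of 1.15. In bulk RNA, more cells of a kind and more RNA per cell cannot be told apart.

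At least 1.2-fold higher were 101 members, 40.4%, where 10.8% of genes off chromosome 10 were. At least 1.2-fold lower were 12 members, 4.80%, where 11.9% of the others were. Larger differences were rare among members, from which 19 genes had been set aside by name, a step not taken off chromosome 10. Of these 19, 8 were at least 1.5-fold higher and 2 lower, and 7 were at least 2-fold higher and 1 lower. At 1.5-fold, 11 members were higher (4.40%, background 1.91%) and 3 lower (1.2%, background 3.87%), and at 2-fold 3 were higher (1.2%, background 0.454%) and 0 lower (background 1.62%). With the short arm of chromosome 12 also left out, the lower shares elsewhere were 10.8%, 2.76% and 1.15% at 1.2-, 1.5- and 2-fold. The members' shares describe the values that picked the chromosome. The distance between the quartiles was 0.26 in members and 0.27 off chromosome 10. Members were thus about as widely scattered as other genes, around a higher centre.

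Counting error was smaller than most differences but does not bound them. Taking 1 kb of fitted transcript length for each gene, 178 members (71.2%) were higher by more than the 95% counting interval, 15 (6%) were lower, and 57 lay within it. Off chromosome 10 the same rule marked 30.0% as higher and 31.1% as lower. Elsewhere it is passed about equally often in either direction, and it covers counting alone.

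**Figure D1:**
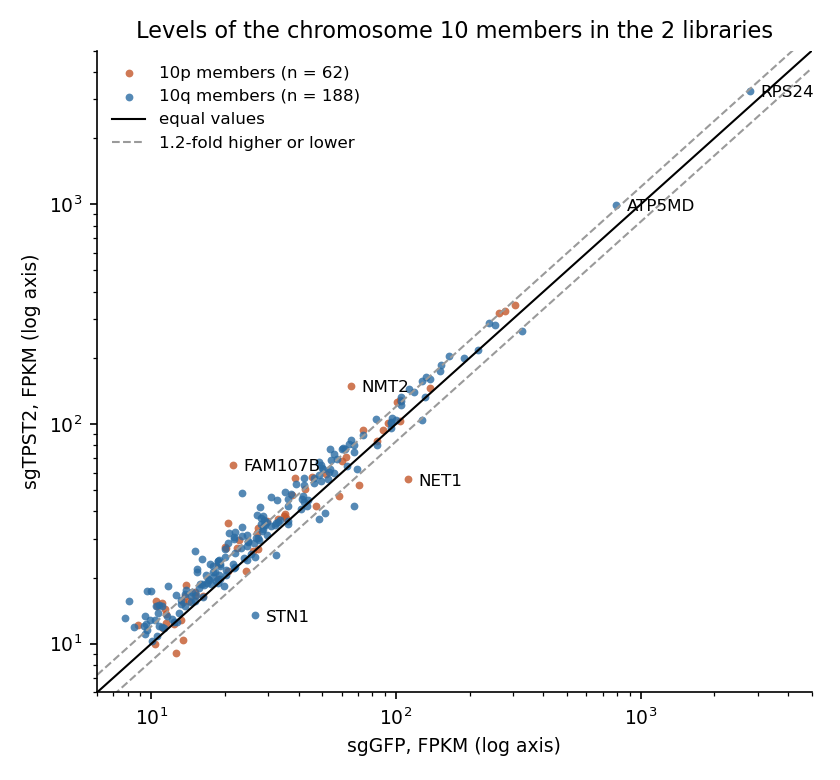
Level of each of the 250 members in sgTPST2 (vertical axis) and sgGFP (horizontal axis), in FPKM on log axes, with 10p members in orange and 10q members in blue. Of the 250 points, 221 lie above the line of equal values (the dashed lines mark 1.2-fold on the plain ratio), and NET1 and STN1 stand well below.

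The 10 members with the largest positive differences ranged from 0.60 to 1.56. FAM107B (ENSG00000065809.13, 14518557 to 14774897 on chromosome 10) was at 65.3 FPKM in sgTPST2 and 21.5 FPKM in sgGFP, a difference of 1.56. NMT2, which attaches the fatty acid myristate to proteins, was at 149.1 FPKM in sgTPST2 and 65.3 FPKM in sgGFP (1.18). SNCG, the gene of gamma-synuclein, was at 48.3 FPKM in sgTPST2 and 23.4 FPKM in sgGFP (1.01). These 3 were the members at 2-fold or more.

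VSIR, the gene of the immune checkpoint protein VISTA, was at 15.6 FPKM in sgTPST2 and 8.10 FPKM in sgGFP. KAZALD1, a secreted protein gene, was at 17.3 and 9.57 FPKM in sgTPST2 and sgGFP, and LDB1, an adaptor of LIM-domain transcription factors, at 26.5 and 15.1 FPKM. MARVELD1, which encodes a membrane protein, was at 17.5 FPKM in sgTPST2 and 9.96 FPKM in sgGFP. The autophagy receptor gene OPTN was at 35.3 FPKM in sgTPST2 and 20.6 FPKM in sgGFP. UBTD1, a ubiquitin-domain protein gene, was at 13.1 and 7.84 FPKM in sgTPST2 and sgGFP, and AVPI1 at 18.2 and 11.7 FPKM. Of these 10, only FAM107B, NMT2 and SNCG were above 40 FPKM in sgTPST2. FAM107B, NMT2, SNCG, VSIR and OPTN overlap an annotated gene on the opposite strand, and no source used here says whether the counting used strand.

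The 10 members with the largest negative differences ranged from -0.98 to -0.31. NET1 (ENSG00000173848.18, 5412551 to 5458463), an exchange factor for the GTPase RhoA, was at 55.9 FPKM in sgTPST2 and 111.7 FPKM in sgGFP, a difference of -0.98. STN1 (ENSG00000107960.10, 103882542 to 103918205), a subunit of the CST complex at telomeres, was at 13.4 FPKM in sgTPST2 and 26.6 FPKM in sgGFP (-0.93). SLK, a kinase of the Ste20 family, was at 42.4 FPKM in sgTPST2 and 67.2 FPKM in sgGFP (-0.65). Only these 3 were at least 1.5-fold lower.

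ASB13, a substrate adaptor of cullin ubiquitin ligases, was at 9.04 FPKM in sgTPST2 and 12.7 FPKM in sgGFP. HACD1, an enzyme of very-long-chain fatty acid elongation, was at 52.6 FPKM in sgTPST2 and 70.6 FPKM in sgGFP. ALDH18A1, which makes the proline precursor pyrroline-5-carboxylate, was at 39.2 FPKM in sgTPST2 and 51.5 FPKM in sgGFP. The recombination factor gene SFR1 was at 37.0 and 48.6 FPKM in sgTPST2 and sgGFP, COMMD3 at 10.4 and 13.5 FPKM, and the endocytic receptor gene CUBN at 46.8 and 58.4 FPKM. The remaining one, RPL13AP5 (25.3 FPKM in sgTPST2 and 32.4 FPKM in sgGFP), is a processed pseudogene of a ribosomal protein gene, and its value may hold reads of the parent gene.

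Among members, FAM107B alone has q under 0.05 in the authors' deposited table (q = 0.0126, log2 difference 1.56). That is 0.400% of members, against 0.620% of genes off chromosome 10. AKR1C3, which was set aside by name and so is not counted, has the same q-value there. With 1 library per group, the authors' values cannot measure the spread between cultures. In the authors' deposited table NMT2 has a q-value of 0.739, NET1 of 0.363, and LDB1 and STN1 of 0.99965. These 4 and FAM107B are the 5 members whose unadjusted value there is under 0.05, with FAM107B, NMT2 and LDB1 higher in sgTPST2 and NET1 and STN1 lower.

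Proximal promoters are printed for the 2 members farthest above and the 2 farthest below 0, to show the sequence at the starts of members from opposite ends of the range. Each window runs from 250 bases before to 50 after the RefSeq gene start (GRCh38.p14), 5′ to 3′ on the gene's strand. The windows are chr10:14532665-14532964 (minus strand) for FAM107B, chr10:15168644-15168943 (minus) for NMT2, chr10:5412307-5412606 (plus) for NET1 and chr10:103918135-103918434 (minus) for STN1. Capitals mark matches on either strand to 4 motifs, which may overlap each other. They are the SP1 core GGGCGG, the box with the letters CCAAT, an ETS core spelled CCGGAAG, and the TATA box TATAAA.
FAM107B: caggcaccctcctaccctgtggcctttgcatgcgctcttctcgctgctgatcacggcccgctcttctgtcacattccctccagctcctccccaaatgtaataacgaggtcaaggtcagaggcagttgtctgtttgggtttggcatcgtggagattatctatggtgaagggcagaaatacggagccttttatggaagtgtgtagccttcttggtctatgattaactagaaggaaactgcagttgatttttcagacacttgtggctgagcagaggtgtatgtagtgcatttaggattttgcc
NMT2: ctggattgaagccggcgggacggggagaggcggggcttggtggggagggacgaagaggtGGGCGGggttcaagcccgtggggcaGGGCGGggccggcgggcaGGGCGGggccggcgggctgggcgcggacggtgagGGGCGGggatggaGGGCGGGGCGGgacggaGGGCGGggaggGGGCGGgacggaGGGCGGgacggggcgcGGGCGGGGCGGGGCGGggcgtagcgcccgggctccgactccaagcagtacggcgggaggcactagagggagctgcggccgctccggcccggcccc
NET1: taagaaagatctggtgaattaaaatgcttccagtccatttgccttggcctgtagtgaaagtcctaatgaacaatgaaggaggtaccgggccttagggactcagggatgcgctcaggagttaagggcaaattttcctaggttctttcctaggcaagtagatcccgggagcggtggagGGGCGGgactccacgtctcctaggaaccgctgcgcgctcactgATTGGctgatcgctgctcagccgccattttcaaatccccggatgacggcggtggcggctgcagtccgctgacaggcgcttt
STN1: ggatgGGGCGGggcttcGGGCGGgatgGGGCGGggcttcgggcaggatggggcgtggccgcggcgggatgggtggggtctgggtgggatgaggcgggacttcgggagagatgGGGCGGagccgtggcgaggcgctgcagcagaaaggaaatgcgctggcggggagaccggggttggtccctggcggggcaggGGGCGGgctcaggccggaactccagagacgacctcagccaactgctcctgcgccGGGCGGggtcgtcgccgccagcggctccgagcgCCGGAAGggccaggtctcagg
The FAM107B window held none of the 4 motifs, had 49.0% G or C, and lies inside the annotated gene rather than at its outer end. The NMT2 window held 12 matches to GGGCGG and had 81.3% G or C. The NET1 window held 1 SP1 core and 1 box with CCAAT, and the STN1 window held 6 SP1 cores and 1 ETS core. A GC-rich start with many SP1 cores was thus present both in a member far above 0 and in one far below it.

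RefSeq windows matched 209 of the 250 members. Where a symbol had more than 1 window, the first by chromosome and coordinate was kept. On the minus strand that is the start farthest downstream. GGGCGG was present in 65.6% of them, CCAAT in 35.4%, CCGGAAG in 22% and TATAAA in 4.78%, and the median window had 64.7% G or C and 25 CpG sites. Over 5368 genes off chromosome 10 with the same filters the shares were 72.7%, 37.7%, 24.1% and 4.92%, with 65.3% G or C and 27 CpG sites. Over all 27305 windows kept, 1 for each symbol, they were 43.8%, 35.6%, 10.6% and 12.1%. Among members, GGGCGG was present in 65.9% of the 82 that were at least 1.2-fold higher and in 65.4% of the other 127, and CCGGAAG in 22% of each. TATAAA was in 2.44% of the higher members and 6.30% of the others. These shares are descriptions of letters in a window.

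The lean upwards ran along the whole chromosome. In windows of 10 Mb, all 14 had a median above 0, between 0.12 (40 to 50 Mb, 11 members) and 0.30 (110 to 120 Mb, 20 members). The short-arm windows had medians of 0.17 (0 to 10 Mb, 16 members), 0.18 (10 to 20 Mb, 22 members), 0.28 (20 to 30 Mb, 15 members) and 0.15 (30 to 40 Mb, 9 members). From 50 to 60 Mb the median was 0.25 over 6 members, and from 60 to 70 Mb it was 0.15 over 21, all of them positive. It was 0.26 from 70 to 80 Mb (30 members), 0.13 from 80 to 90 Mb (14), 0.21 from 90 to 100 Mb (29) and 0.27 from 100 to 110 Mb (33). Towards the end of the long arm it was 0.17 (120 to 130 Mb, 16 members) and 0.23 (130 to 140 Mb, 8 members), again with every member positive. The lowest of the 14 medians was thus still above the median of genes off chromosome 10.

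Among 281 windows of the genome with at least 5 genes, the 14 of chromosome 10 ranked between 2 and 29, and 12 of them were among the highest 20. One window ranked above all of them, on chromosome 3 (190 to 200 Mb, 31 genes, median 0.32). The chromosome 13 windows from 20 to 60 Mb had medians of 0.20, 0.18, 0.20 and 0.20 and held ranks 11 to 14. They lay above the chromosome 10 windows from 0 to 20 Mb, among others. By whole chromosome, chromosome 10 had the highest median of 23. Its genes set aside by name were left out of both rankings, and with them put back its median was 0.23. Chromosome 13 followed with 0.12 over 107 genes and chromosome 5 with 0.07 over 350, and chromosome 12 was lowest with -0.09 over 344. For scale, the 83 genes of the short arm of chromosome 12 had a median of -0.89 and a quartile distance of 0.31. The difference between chromosome 10 and the next chromosome has no test here.

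**Figure D2:**
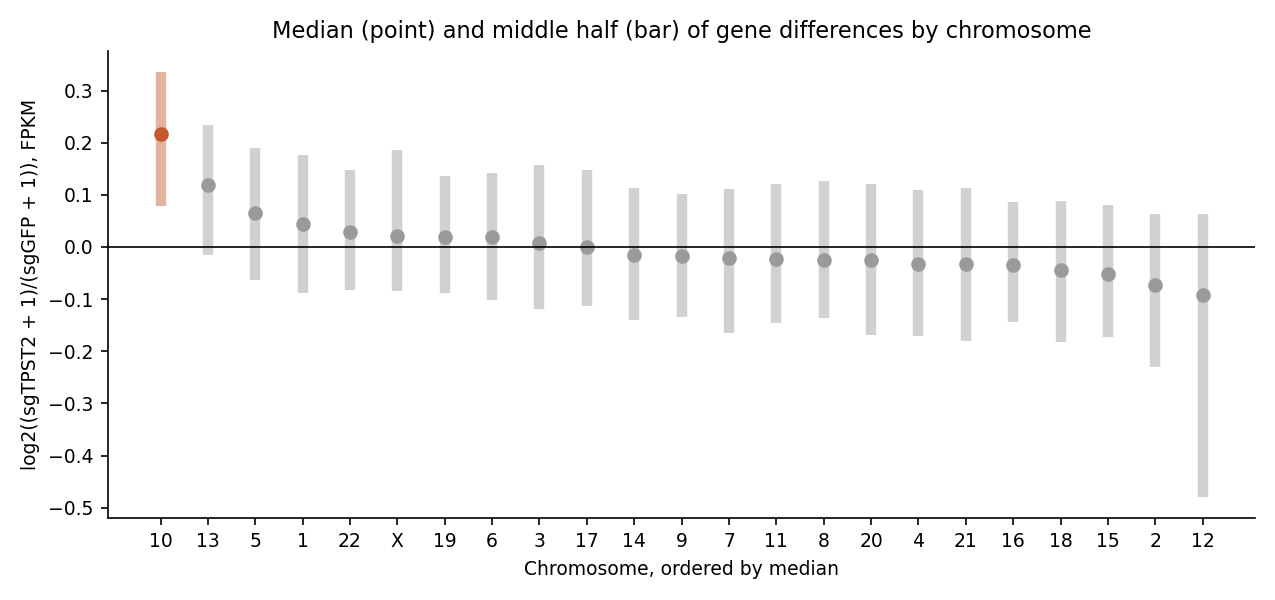
Median (point) and quartiles (bar) of the log2 difference between sgTPST2 and sgGFP for each chromosome, over genes passing the same filters, ordered by median. Chromosome 10 alone is shown without the 19 genes set aside by name. Chromosome 10, in orange, has a median of 0.22, and its lower quartile of 0.08 lies above 0, which no other chromosome shows.

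Both arms shared the lean. The 62 members of 10p had a median of 0.18 (1.14-fold), 50 were higher, and at 1.2-fold 23 were higher and 5 lower. The 188 members of 10q had a median of 0.23 (1.17-fold), 171 were higher, and at 1.2-fold 78 were higher and 7 lower. The arms' medians differed by -0.04 (10p minus 10q), with quartiles of 0.05 and 0.32 on 10p and of 0.10 and 0.34 on 10q. With members that overlap an opposite-strand gene left out, which leaves 110, the 10p median was 0.10 and that of 10q 0.22. Genes of an arm are not replicates, so this difference was not tested.

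The first and last members of each arm are named for their position. ZMYND11, a chromatin reader gene starting at 134465, was at 36.2 FPKM in sgTPST2 and 29.7 FPKM in sgGFP. CCNY, the last of 10p and a cyclin gene, was at 39.1 FPKM in sgTPST2 and 35.3 FPKM in sgGFP. ZNF37BP, a transcribed pseudogene and the first of 10q, was at 11.9 and 11.1 FPKM in sgTPST2 and sgGFP. MTG1, a mitochondrial ribosome GTPase gene starting at 133394094, was at 27.2 FPKM in sgTPST2 and 23.3 FPKM in sgGFP. All 4 were higher in sgTPST2, by 0.28, 0.15, 0.09 and 0.21, as were 88.4% of all members.

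**Figure D3:**
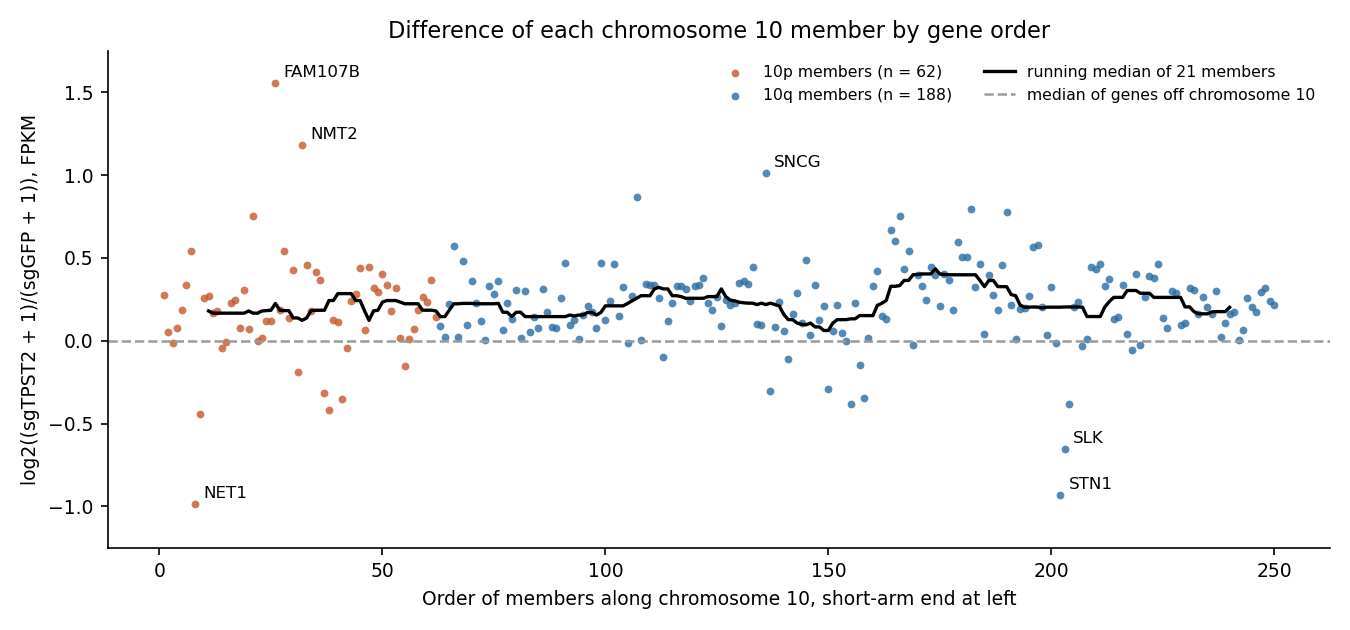
Log2 difference of each of the 250 members, in order along chromosome 10 with the end of the short arm at left; 10p is orange, 10q blue, the black line is the running median of 21 members and the dashed line the median of genes off chromosome 10. The running median stays above the dashed line throughout, and SLK, STN1 and NET1 are the lowest points.

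Some of the extreme members were neighbours, a pattern picked out after the values were seen. STN1, SLK and SFR1, ranks 2, 3 and 7 from the lowest, are consecutive members between 103882542 and 104126385. COL17A1, a hemidesmosomal collagen gene set aside by name, lies between SLK and SFR1 and was at 27.5 FPKM in sgTPST2 and 92.0 FPKM in sgGFP (-1.71). The flanking members PDCD11 (36.0 FPKM in sgTPST2 and 36.3 FPKM in sgGFP) and GSTO1 (174 FPKM in sgTPST2 and 151.3 FPKM in sgGFP) were at -0.01 and 0.20. The members next to the run on either side were thus near 0 or positive. Beyond GSTO1 lies ITPRIP, below the level for membership, at 2.91 FPKM in sgTPST2 and 3.98 FPKM in sgGFP (-0.35).

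NET1 and ASB13 are consecutive members on 10p as well. The next members towards the centromere, FAM208B and GDI2, were at 0.26 and 0.27. On the other side of NET1 lie AKR1C1, AKR1C2 and AKR1C3, which were set aside by name and were at 1.42, 1.42 and 4.04. Neighbouring genes there stood at opposite ends of the range.

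UBTD1, AVPI1 and MARVELD1, among the 10 most positive, lie between 97498868 and 97718152 and are consecutive members. The genes MORN4 (5.48 FPKM in sgTPST2 and 5.65 FPKM in sgGFP) and PI4K2A (9.15 and 7.54 FPKM), below the level for membership, lie among them at -0.04 and 0.25. In the region with FAM107B and NMT2, SUV39H2 was at 0.14, DCLRE1C at 0.43 and RPP38 at -0.19. RPP38 and NMT2 overlap on opposite strands. Both HSPA14 entries, between FAM107B and NMT2, were positive, at 0.18 and 0.54. The members flanking FAM107B and NMT2 were PRPF18 (0.12) and FAM171A1 (0.46). Those flanking UBTD1 and MARVELD1 were MMS19 (0.13) and ZFYVE27 (0.43). Differences within these regions were thus not shared by every gene, and the flanking members were positive.

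Of the 5 most abundant members, 4 were higher in sgTPST2, a count near the share of all members (88.4%). Of all members above 100 FPKM 90% were higher, against 53.4% of such genes off chromosome 10. RPS24, a protein of the small ribosomal subunit, was at 3271 FPKM in sgTPST2 and 2795 FPKM in sgGFP (0.23). ATP5MD was at 997 FPKM in sgTPST2 and 795 FPKM in sgGFP (0.33) and ATP5F1C, also of ATP synthase, at 327 and 279 FPKM in sgTPST2 and sgGFP (0.22). ITGB1, the integrin beta 1 chain, was at 349 FPKM in sgTPST2 and 307 FPKM in sgGFP (0.18). ADIRF was the exception in direction, at 265 FPKM in sgTPST2 and 328 FPKM in sgGFP (-0.30).

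The lean was present at every level and gene length. Members of 10 to 20 FPKM had a median of 0.19 (79 members), those of 20 to 50 FPKM 0.23 (98), those of 50 to 100 FPKM 0.20 (43) and those above 100 FPKM 0.23 (30). Off chromosome 10 the same classes had medians of -0.01, -0.01, 0.00 and 0.02. Members spanning under 20 kb had a median of 0.32 (49 members), those of 20 to 60 kb 0.20 (113) and longer ones 0.19 (88). Off chromosome 10 these were 0.04, -0.02 and -0.05. Short genes were therefore higher than long ones both on and off the chromosome, and members were above other genes in each class. By strand, the 129 members on the plus strand had a median of 0.19 and the 121 on the minus strand 0.24.

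Genes on either side of the level for membership had similar values. Just inside it, POLL was at 10.3 FPKM in sgTPST2 and 10.02 FPKM in sgGFP, PFKFB3 at 9.996 and 10.3 FPKM, and ZFYVE27 at 11.9 and 8.53 FPKM. Just outside, STAM was at 10.6 FPKM in sgTPST2 and 9.24 in sgGFP, SGMS1 at 10.8 and 8.90, and TWNK at 9.74 and 9.97. The 166 chromosome 10 genes averaging 1 to 10 FPKM had a median of 0.14, against -0.01 for 4189 such genes elsewhere.

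By role, every one of 11 lists had a positive median, between 0.08 and 0.33, and together they hold 198 members. The lists are parts of the members, 88.4% of which were positive, so positive medians follow from the choice of chromosome. Lists were written from general knowledge, and a member can stand in more than 1. Called below means at least 1.2-fold, which 10.8% of genes off chromosome 10 were in the higher direction and 11.9% in the lower. Among all 250 members these shares were 40.4% and 4.80%. Only the lists for ubiquitin and protein folding, membrane traffic, and adhesion had a larger share called higher than all members.

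The highest medians were those of protein turnover and membrane traffic. Of 23 members for ubiquitin and protein folding, 15 were called higher and 1 lower (median 0.33). UBTD1 is given above, TRIM8, a ubiquitin ligase, was at 24.4 FPKM in sgTPST2 and 16.2 FPKM in sgGFP, and the main HSPA14 entry, a ribosome-associated Hsp70, was at 56.7 FPKM in sgTPST2 and 38.7 FPKM in sgGFP. The second HSPA14 entry, on the same strand and overlapping it, was at 15.4 and 13.5 FPKM in sgTPST2 and sgGFP, so reads may be split between them. Of 29 members for membrane traffic and lysosomes, 19 were called higher and 1 lower (median 0.30), the lower being COMMD3. Beside OPTN, HPS1, which acts in the making of lysosome-related organelles, was at 32.2 FPKM in sgTPST2 and 21.9 FPKM in sgGFP. WASHC2C, of the WASH complex on endosomes, was at 21.9 FPKM in sgTPST2 and 15.4 FPKM in sgGFP, a value made uncertain by its near-identical copy WASHC2A. In the ubiquitin and folding list 65.2% of members were called higher, and in the traffic list 65.5%.

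The list for adhesion and cytoskeleton had the widest quartile distance of the 11 (0.36). That scatter depends on which genes were listed, and lists were written with earlier results known. Of the 17 members, 9 were called higher and 2 lower (median 0.27). NET1 was the lowest, and the most positive, VSIR and KAZALD1, are an immune checkpoint and a secreted protein rather than parts of the cytoskeleton. MYOF, a membrane repair protein gene, was the other lower member, at 104 FPKM in sgTPST2 and 128 FPKM in sgGFP. Among 16 members for signalling and apoptosis, 5 were called higher and 1 lower (median 0.23). SLK was that lower one, the co-chaperone BAG3 was at 45.3 FPKM in sgTPST2 and 32.6 FPKM in sgGFP, and SHOC2, a scaffold of the RAS pathway, was at 21.1 and 15.4 FPKM in sgTPST2 and sgGFP.

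Mitochondrial members were close to members as a whole. Of 29, 11 (37.9%) were called higher, against 40.4% of all members, and 0 lower. A positive difference was found in 27 (93.1%, against 88.4% of all members), and the median was 0.24. MRPL43, of the large mitochondrial ribosomal subunit, was at 77.1 FPKM in sgTPST2 and 54.0 FPKM in sgGFP. The carrier SLC25A16 was at 14.8 FPKM in sgTPST2 and 10.4 FPKM in sgGFP, and the iron carrier SLC25A28 was at 23.1 and 17.3 FPKM in sgTPST2 and sgGFP. For glycolysis and intermediary metabolism, 9 of 29 members were called higher and 2 lower (median 0.17). The nucleotidase gene NT5C2 was at 46.4 FPKM in sgTPST2 and 30.8 FPKM in sgGFP and HK1, a hexokinase, at 49.3 and 35.3 FPKM. HACD1 and ALDH18A1 were the 2 lower ones.

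Members for the cell cycle and RNA processing had medians close to that of the metabolism list. Of 14 members for mitosis and the cell cycle, 5 were called higher and 0 lower (median 0.19). ZWINT, a kinetochore protein gene, was at 78.1 FPKM in sgTPST2 and 60.6 FPKM in sgGFP, ANAPC16, of the anaphase-promoting complex, at 68.6 and 54.1 FPKM, and BUB3, of the spindle checkpoint, at 204 and 163.9 FPKM. For RNA splicing, processing and decay, 5 of 15 were called higher and 0 lower (median 0.18). CWF19L1 was at 38.1 FPKM in sgTPST2 and 28.6 FPKM in sgGFP, and TIAL1, an RNA-binding protein of stress granules, at 31.0 and 23.6 FPKM. The third of that list by size, CUTC (22.7 FPKM in sgTPST2 and 17.9 FPKM in sgGFP), is known as a copper-handling protein.

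The lowest medians were those of transcription, ribosomes and DNA replication. Of 14 members for transcription and chromatin, 5 were called higher and 0 lower (median 0.13). LDB1 is given above, the zinc finger gene ZNF32 was at 42.0 FPKM in sgTPST2 and 27.9 FPKM in sgGFP, and CREM, a cAMP-responsive transcription factor gene, was at 29.8 and 22.9 FPKM in sgTPST2 and sgGFP. Of 22 members for ribosomes, translation and the nucleolus, 5 were called higher and 0 lower (median 0.08). RPP30, a subunit of RNase P, was at 38.4 FPKM in sgTPST2 and 27.2 FPKM in sgGFP, and MRPS16, of the small mitochondrial ribosomal subunit, at 105.0 and 83.2 FPKM. Of 12 members for DNA replication and repair, 1 was called higher and 1 lower (median 0.08). DCLRE1C, the nuclease Artemis of end joining, was the higher one, at 12.2 FPKM in sgTPST2 and 8.83 FPKM in sgGFP, and SFR1 the lower one. These called shares, 8.33% in each direction, lie near the 10.8% and 11.9% of genes off chromosome 10.

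**Figure D4:**
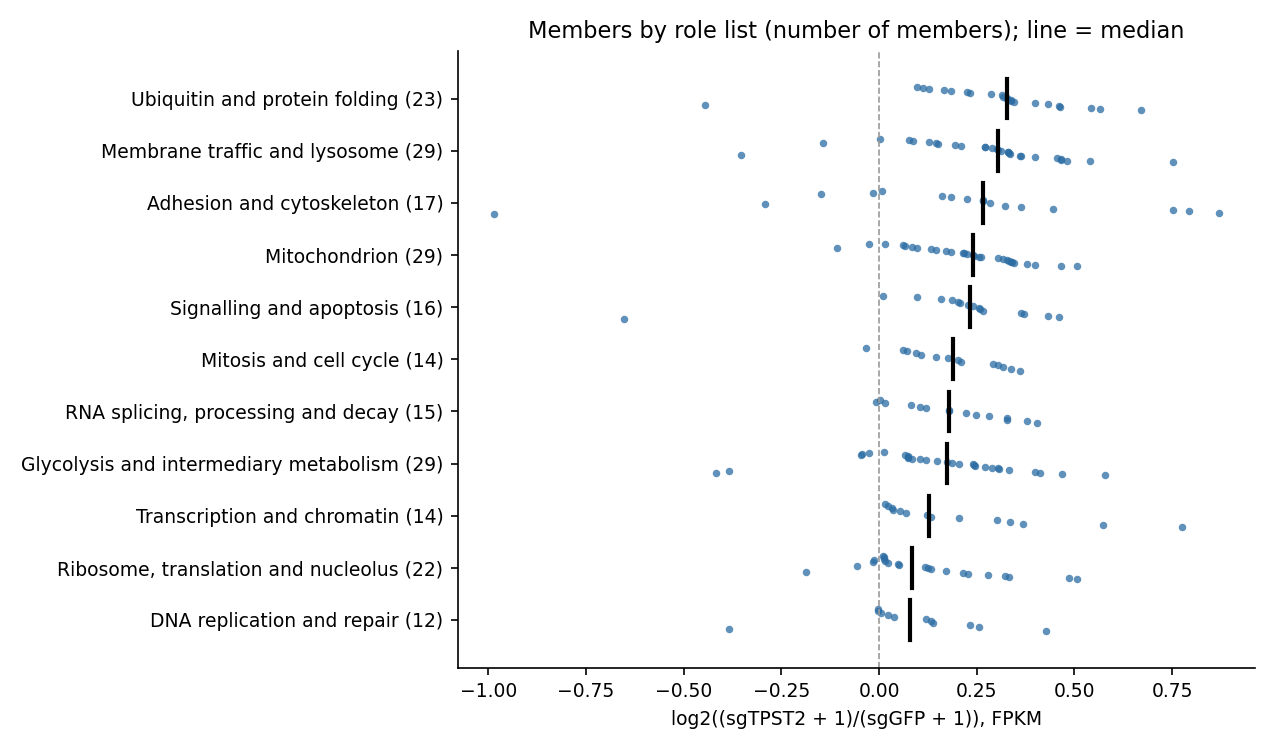
Log2 difference of each member (points) in 11 role lists, with the number of members in brackets and a black line at the list's median. All 11 medians lie to the right of 0, from 0.08 for DNA replication and repair to 0.33 for ubiquitin and protein folding. The lists are parts of the members, whose chromosome was picked for its lean upwards.

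Products of these genes work with products of other chromosomes, so members were set beside partners fixed from general knowledge. In 16 of 17 complexes or families, at least 1 member and 1 partner passed the filters, giving 29 members and 102 partners. Of the members, 24 had a positive difference, 12 (41.4%) were at least 1.2-fold higher and 1 lower, and their median was 0.22. Of the partners, 49 had a positive difference, 8 (7.84%) were at least 1.2-fold higher and 11 lower, and their median was 0.00. In 15 of the 16 the median of the members was above that of the partners. Since chromosome 10 was picked for its lean, the contrast is a description of which genes lean.

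In mitosis, CDK1 was at 164 FPKM in sgTPST2 and 132 FPKM in sgGFP (0.30), and each of 9 cyclins and regulators lay below that. The one farthest from 0, the CDK-binding CKS1B, was at 165.2 FPKM in sgTPST2 and 139.7 FPKM in sgGFP (0.24). BUB3 and ZWINT, given above, were at 0.32 and 0.36, while 8 spindle checkpoint partners had a median of -0.04. Their farthest member, the checkpoint kinase BUB1B, was at 49.8 FPKM in sgTPST2 and 57.7 FPKM in sgGFP. CDK1, BUB3 and ZWINT thus each lay above every partner listed with them.

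In replication and chromosome cohesion some members were near 0 and DNA2 lay above all its listed partners. MCM10 was at 27.1 FPKM in sgTPST2 and 27.2 FPKM in sgGFP (0.00) and the nuclease-helicase DNA2 at 23.0 and 19.1 FPKM (0.25), and 11 helicase partners had a median of 0.03, with GINS1 farthest from 0 at 0.21. The cohesin ring subunit SMC3 was at 35.2 FPKM in sgTPST2 and 36.0 FPKM in sgGFP (-0.03), its release factor WAPL was at 0.10, and 7 partners had a median of -0.02, with STAG2 farthest at -0.24. EIF3A, the scaffold of the initiation factor eIF3, was at 80.2 FPKM in sgTPST2 and 83.5 FPKM in sgGFP (-0.06). That was the 1 family in which the member lay below the partners' median (-0.01 over 11), with EIF3J farthest at -0.31.

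In mitochondria, ATP5F1C and ATP5MD were at 0.22 and 0.33. The 14 other subunits of ATP synthase had a median of 0.00, with ATP5F1D farthest from 0 at -0.30. ATP5PD, at 0.29, lay above ATP5F1C. VDAC2, a channel of the outer membrane, was at 122 FPKM in sgTPST2 and 105 FPKM in sgGFP (0.22), while VDAC1 was at -0.09 and VDAC3 at 0.03. PRDX3, the mitochondrial peroxiredoxin, was at 288 FPKM in sgTPST2 and 239.9 FPKM in sgGFP (0.26). The 5 other peroxiredoxins lay between -0.39 (PRDX2) and 0.56 (PRDX6). In that family the spread of the partners was wider than the distance between member and partners. The same was so in ATP synthase, the COPII coat, the integrins and other families.

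Among metabolic isoenzymes, PFKP was at 93.5 FPKM in sgTPST2 and 88.7 FPKM in sgGFP (0.07), against -0.07 for PFKL and -0.32 for PFKM, and HK1 was at 0.47. GOT1, GLUD1 and OAT, enzymes of glutamate use, were at -0.03, 0.08 and 0.30 and ALDH18A1 at -0.38. The members of that group did not lean together.

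In the secretory pathway, the COPII genes SAR1A, SEC24C and SEC23IP were at 0.46, 0.33 and 0.08. SAR1A was at 67.0 FPKM in sgTPST2 and 48.3 FPKM in sgGFP. Its partners had a median of 0.06 over 5 and included SEC23B at 27.9 FPKM in sgTPST2 and 44.1 FPKM in sgGFP (-0.64). SAR1B, the paralog of SAR1A on chromosome 5, was at 85.4 FPKM in sgTPST2 and 63.9 FPKM in sgGFP (0.41), close to SAR1A. The retromer subunit VPS26A was at 0.21, and 7 partners, all positive, had a median of 0.08, the largest being VPS26B at 0.20.

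In adhesion, VCL (vinculin) was at 127 FPKM in sgTPST2 and 105.2 FPKM in sgGFP (0.27) and RSU1 at 94.4 and 73.1 FPKM (0.36). Their 5 partners had a median of 0.02, with paxillin (PXN) farthest at -0.36. ITGB1, at 0.18, stood beside alpha chains that lay far apart, with ITGA3 at 14.8 FPKM in sgTPST2 and 45.4 FPKM in sgGFP (-1.56), ITGA5 at -0.44 and ITGAV at 0.51. ANXA7 and ANXA11 were at 0.31 and 0.36, and of 5 annexins on other chromosomes 3 were higher and 2 lower, with a median of 0.30 and ANXA6 at 174.8 FPKM in sgTPST2 and 96.0 FPKM in sgGFP (0.86). The RNA-binding HNRNPF and HNRNPH3 were at 0.22 and 0.08, and 3 relatives had a median of -0.10, with HNRNPH2 farthest at -0.27.

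**Figure D5:**
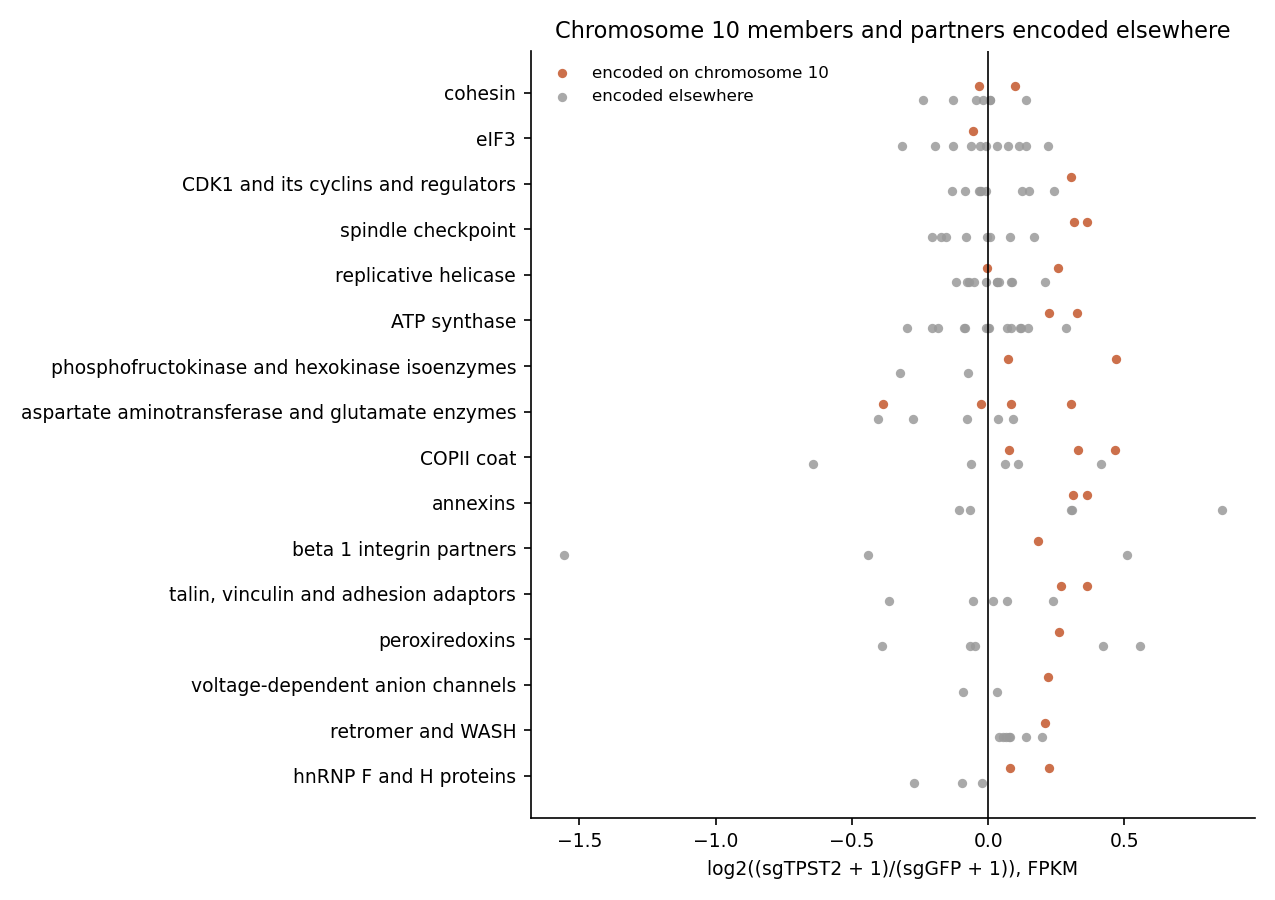
Log2 difference of genes encoded on chromosome 10 (orange, upper row of each pair) and of their partners encoded elsewhere (grey, lower row) in 16 complexes or families. The orange points have a median of 0.22 and the grey points a median of 0.00. In eIF3, the glutamate enzymes, the peroxiredoxins and the annexins, among others, orange points lie inside the range of the grey ones.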

How the data were processed

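Total RNA of 2 MIA PaCa-2 cultures was sequenced with a stranded library kit, per the labels' protocols. STAR, Cuffdiff and the build hg38 are named per the submitters' processing notes, and versions, annotation and strand setting are not stated in those notes or the labels. The deposited table gives each gene a value per culture with no unit in the header. The values were read as FPKM, in which Cuffdiff reports, so the unit is an assumption. The authors' p-value, q-value and log2 fold change were deposited with them, and their test statistic, a score, was not used. Recomputing log2((sgTPST2 + 1)/(sgGFP + 1)) gave the authors' log2 column to within 2.1e-15, and this pseudocount of 1 FPKM was kept.

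All 58698 identifiers matched GENCODE release 29 (GRCh38), which gave the coordinates. Differences, medians, counts at 1.2-, 1.5- and 2-fold, and windows of 10 Mb by gene midpoint were computed in Python 3.11.15 with pandas 2.3.3. The differences were also permuted over genes and known shifts planted in the members, to check that the median shift was recovered. Counts and windows were not checked that way. Fragments per FPKM were fitted on genes with 1 transcript over 1500 bp, where 91.4% of 1039 low values in sgTPST2 and 90.6% of 1019 in sgGFP came within 0.1 of whole fragments. Such intervals cover counting error only. Members, role lists, partners and promoter motifs were chosen with earlier results of these data known. Named genes are TPST2, the 10 largest positive and 10 largest negative differences, the 5 most abundant members, the largest 3 per role list, members and the farthest partner of each family, the ends of each arm and the genes around the level threshold. Of these, 1 partner is not reported here. Others were named after their values were seen.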

Additional observations from a re-analysis of the deposited data

How the results depend on the processing

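No paired analysis was possible because each group is 1 library, which also means that no replicate can be removed. Over 13 other settings and 8 values, 84 of 104 values stayed within their bounds, 20 did not, and 0 medians, differences or shares changed direction. A count was bounded by 1.5 times, and a median or share by the 95% binomial interval over members. For the arm difference, the half-widths of both arms' intervals were combined. These intervals treat genes as independent, though genes are not replicates. Some values could not move. An arm border at 40 Mb changed no member's arm, and centring cannot change the arm difference. The median of all members ranged from 0.15 to 0.23. It was 0.18 with a mean of at least 1 FPKM (416 genes) and 0.15 with no filter on the mean (564 genes), where the 10q median was 0.19 and 0.16 and the share of positive members 82.0% and 75.5%. A pseudocount of 5 gave a 10q median of 0.19. Members at least 1.5-fold higher numbered 18 at a mean of 1 FPKM (3.03% of genes off chromosome 10 at that setting), 1 at 50 FPKM (1.68%), 23 with no filter (2.86%), 19 with the genes set aside by name put back (1.91%) and 5 without genes overlapping the opposite strand (2.22%). Those at least 1.5-fold lower numbered 16 at 1 FPKM (5.51%), 8 at 5 FPKM (4.14%), 2 at 50 FPKM (3.76%), 23 with no filter (5.45%) and 5 with the genes put back (3.87%). More members were thus lower than higher by 1.5-fold at 50 FPKM, and equally many with no filter. Those at least 1.2-fold higher numbered 31 of 73 members at 50 FPKM (9.79%), 175 of 564 with no filter (13.6%) and 39 of 110 without overlapping genes (10.8%), where the 10p median was 0.10. The number of genes differs between these settings by construction. Scaling to the same upper quartile or sum, or centring on the median gene off chromosome 10, kept every value within its bounds. With 1 library per group, depth limits single genes and the missing replicate limits all of them.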
